A study of Mus musculus with 4 samples.

Results

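The genes of the BATF, JUN and FOS families were examined for Runx3 binding in splenic CD4+ dendritic cells (DC). The set was fixed by name and holds 10 genes, Batf, Batf2, Batf3, Jun, Junb, Jund, Fos, Fosb, Fosl1 and Fosl2. A Runx3 peak was counted for a gene when its centre lay inside the gene or at most 50 kb from either end, which gave 57 of the 15121 peaks of the deposited list. None of them was counted for more than 1 gene of the set.

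The cells were CD11chiMHCII+CD4+ DC sorted from pooled spleens of C57BL/6 mice, about 15 mice being given for each sample. They were fixed directly after the sort, with no genotype or treatment that distinguished the samples. A home-made polyclonal antibody to Runx3 was used in 2 immunoprecipitates, described in the paper as biological replicates, and 2 whole cell extract libraries served as control. The strain is labelled C57BL/7 for the second control. Cell identity rests on the sort, because bound regions carry no marker expression against which to check it.

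Proteins of these families carry a basic leucine zipper and bind DNA as dimers. JUN proteins pair with each other or with FOS or BATF proteins, whereas FOS proteins depend on a partner. Dimers of JUN and FOS form the factor AP-1, which recognises the heptamer TGANTCA with C or G as N. The search made here allowed any base as N. BATF proteins lack a transactivation domain and act with JUN partners and with IRF4 or IRF8 at composite elements. In DC they are best known through BATF3, on which the CD8+ lineage of DC depends. Several members, Fos, Fosb, Jun and Junb among them, are immediate early genes that extracellular signals induce within minutes. RUNX factors such as Runx3 bind the hexamer TGTGGT.

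The peaks are 1 call on both immunoprecipitates against both controls. Each has a position and a score that MACS2 wrote and whose unit is not stated. Both immunoprecipitates share 1 value at each peak, which leaves their spread unknown, and no difference was tested. A gene without a peak is one where none was called at this depth.

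All 10 genes had at least 1 peak by this rule, as did 62.6% of the 22367 protein-coding genes of the annotation. The genes differed widely in number of peaks. Junb had 11, Fosb 10, Batf3 9, Fos 7 and Jund 6, whereas Batf had 4, Fosl1 and Fosl2 had 3 each, and Batf2 and Jun had 2 each. The median was 5 peaks per gene, and it was 1 over all protein-coding genes. The count of Junb lay at percentile 99.7 of all protein-coding genes, that of Fosb at 99.4 and that of Batf3 at 98.8, and those of Batf2 and Jun lay at 63.0. Examined windows had similar lengths, with a median of 107.8 kb for the 10 genes and 115.4 kb for all.

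**Figure D1:**
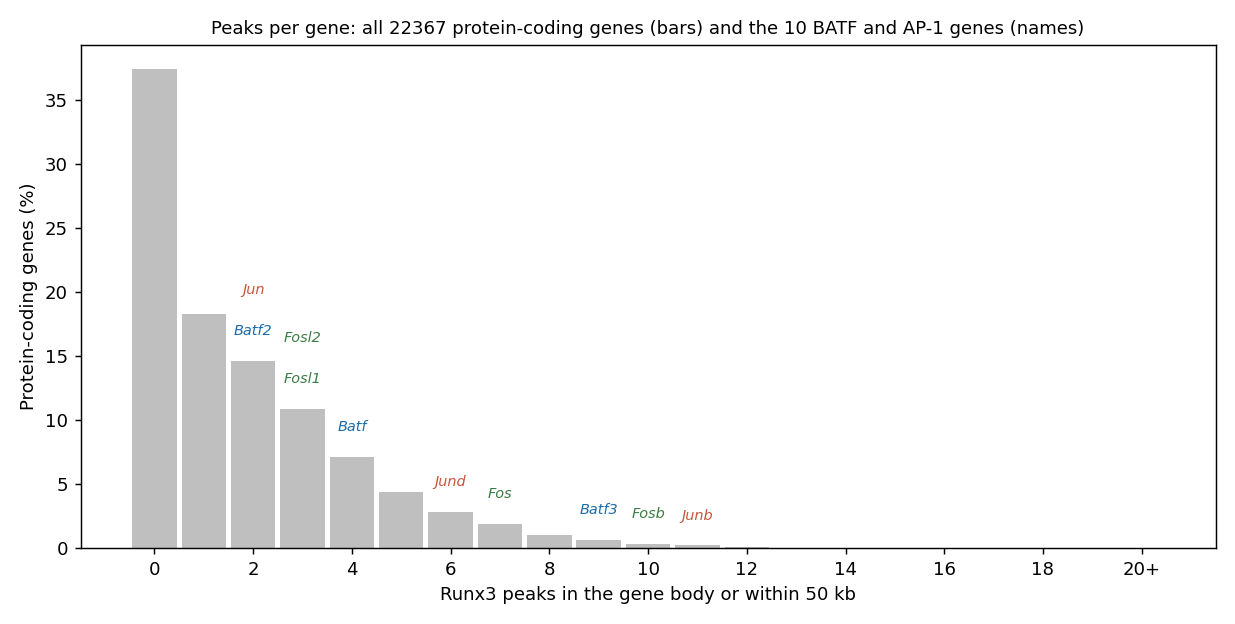
Number of Runx3 peaks in the gene body or within 50 kb (x axis) against the share of all 22367 protein-coding genes in percent (grey bars, the last bar holding 20 or more peaks). Names mark the 10 genes at their own counts (blue for BATF, red for JUN, green for FOS), and Batf3, Fosb and Junb stand at 9, 10 and 11 peaks.

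Over all protein-coding genes, the mean count by this rule was higher where more genes shared the window. For Batf, Batf3, Jun, Fos and Fosl2 it held 0 to 2 other protein-coding genes. These had a mean of 5 peaks, against 1.22 for all protein-coding genes with as few neighbours. Jund, with 4 other genes, had 6 peaks, against a mean of 2.05 for genes with 3 to 5. Batf2, Junb and Fosb, with 6 to 8 other genes, had a mean of 7.67 peaks against 3.08. Fosl1 has 10 other protein-coding genes in its window, and its 3 peaks compared with a mean of 4.32 for genes with 9 to 11.

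**Figure D2:**
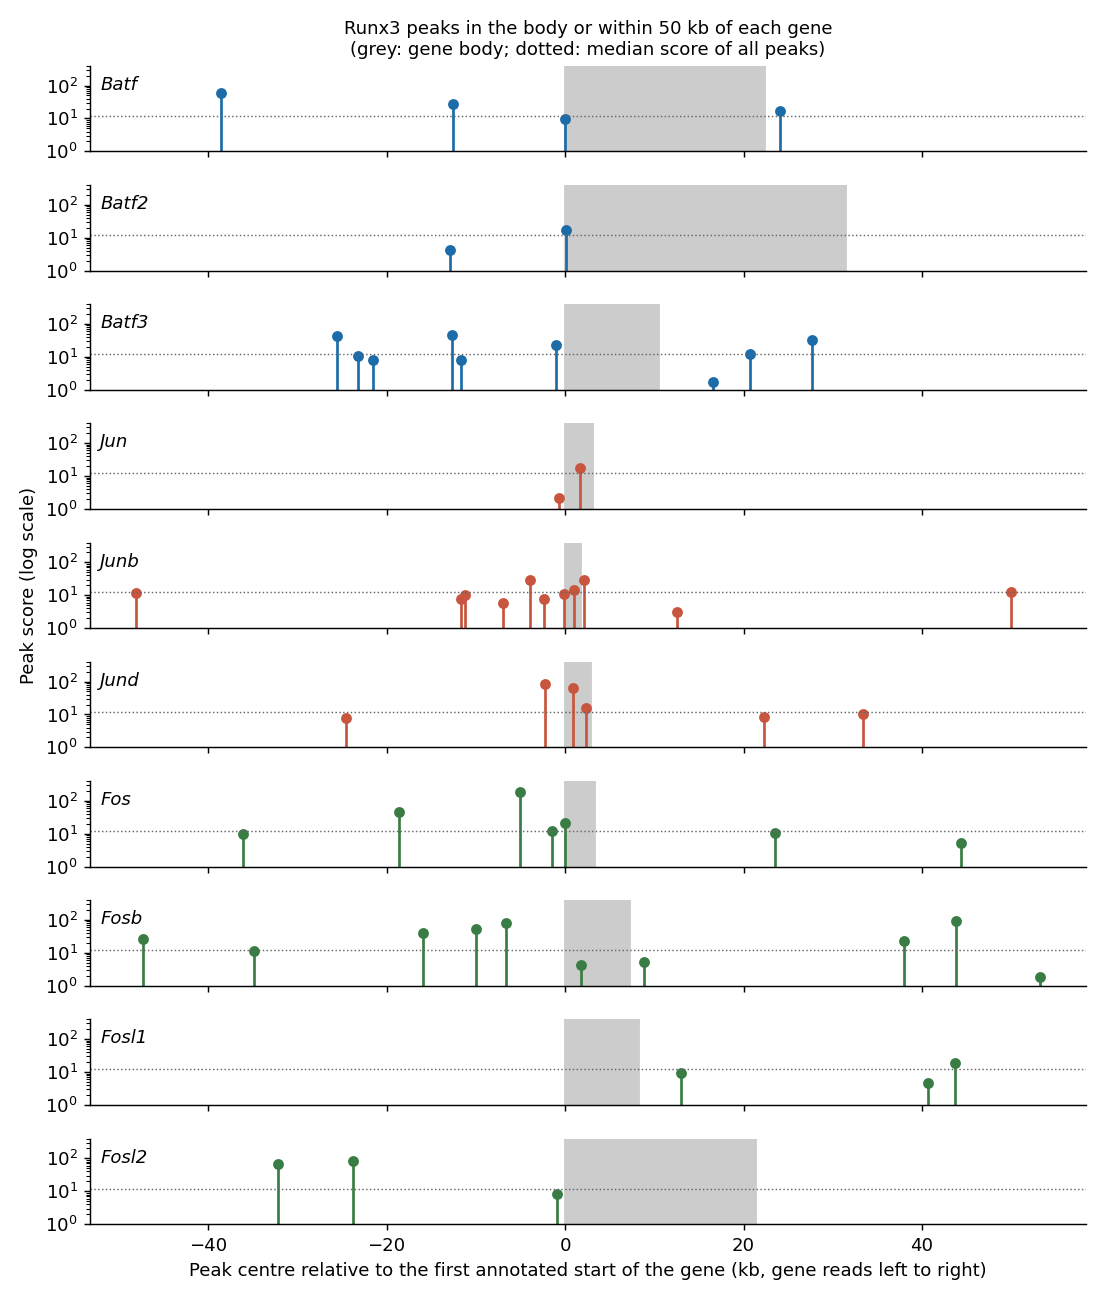
Position of each peak centre in kb from the first annotated start of the gene (x axis, each gene reading left to right, grey band for the gene body) against peak score (y axis, log scale). The dotted line is the median score of all peaks, 12.1. The highest stem, at 5087 bp before Fos, reaches 186, and most peaks stand outside the grey bands.

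The strongest peak of each gene, and any peak within 1 kb of a transcription start site (TSS) with at least the median score of the list, are shown as sequence to let the binding motifs be read directly. Each is the 200 bp around the peak centre on mm9, plus strand, shortened where a UTR begins, and the promoter peak of Jund is left out because it lies in one. Capitals mark the RUNX motif TGTGGT and its variant TGCGGT, the AP-1 motif TGANTCA, the motif TGACGT of cyclic AMP response elements and the CArG box, on either strand, so that TGTGGT also appears as ACCACA.

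Batf encodes the founding BATF protein and lies on chromosome 12 from 87027619 to 87050037, plus strand. Its peaks scored 60.2, 27.2, 9.84 and 16.5 in genomic order. The strongest was the farthest away, 38553 bp upstream of the TSS, and the next lay 12519 bp upstream. The peak at the TSS itself, 27 bp upstream, was the weakest of the 4, at percentile 39.9 of the list. It holds TGTGGT 2 times and TGACGT once. The far peak from 86988730 to 86989401 is intergenic and lies between Batf and Jdp2, which encodes another bZIP partner of JUN. By the same 50 kb rule it belongs to both genes, although its nearest TSS is that of Batf.
Batf far upstream peak, chr12:86988966-86989165: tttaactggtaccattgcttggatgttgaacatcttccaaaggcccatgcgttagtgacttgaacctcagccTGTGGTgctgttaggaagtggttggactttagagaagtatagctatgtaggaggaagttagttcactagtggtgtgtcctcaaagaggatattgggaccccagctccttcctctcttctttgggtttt

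Batf3 (chromosome 1, 192922293 to 192932822, plus strand) was the richest BATF gene, with 6 peaks upstream, 3 downstream and 0 inside the gene. The 9 scores lay between 1.69 and 46.2 (median 12.0). Of the peaks 4 reached the upper quartile of the list, a score of 23.2. These lay 25545 bp, 12710 bp and 976 bp upstream and 27631 bp downstream of the TSS, with scores of 42.1, 46.2, 23.2 and 33.2. The first of them, with the peaks 23186 bp and 21481 bp upstream, is centred in intron 4 of Nsl1, a kinetochore gene whose TSS is nearer to all 3 than that of Batf3. TGTGGT was present in 8 of the 9 peaks, the exception being the one 27631 bp downstream.
Batf3 upstream peak, chr1:192909483-192909682: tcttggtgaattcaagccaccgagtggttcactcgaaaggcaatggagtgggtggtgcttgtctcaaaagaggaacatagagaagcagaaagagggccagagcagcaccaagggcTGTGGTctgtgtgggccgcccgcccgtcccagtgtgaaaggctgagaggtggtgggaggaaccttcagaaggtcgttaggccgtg
Batf3 promoter peak, chr1:192921217-192921416: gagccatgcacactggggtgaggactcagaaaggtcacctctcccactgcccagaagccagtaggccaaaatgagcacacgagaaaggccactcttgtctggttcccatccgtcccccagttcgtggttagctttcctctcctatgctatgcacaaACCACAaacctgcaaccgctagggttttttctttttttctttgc

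Batf2, an interferon-inducible family member (chromosome 19, 6140983 to 6172476, plus strand), had 2 peaks, with scores of 4.23 and 17.5. Both lie at the starts of other genes. The weaker is centred 60 bp from a TSS of Snx15, a sorting nexin gene, and the stronger 12 bp from a TSS of Arl2, which encodes a small GTPase. The stronger is also 145 bp from the first annotated Batf2 TSS, but the transcript that starts there is not annotated as coding. From the coding Batf2 TSS at 6164439 the nearest peak centre was 23.3 kb away. The stretch of the Arl2 peak free of UTR, which is 74 bp long, has no motif to capitalise.
Batf2 and Arl2 start, chr19:6141028-6141101: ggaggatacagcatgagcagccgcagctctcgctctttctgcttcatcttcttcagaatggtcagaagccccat

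Jun (chromosome 4, 94715725 to 94718913, minus strand) encodes c-Jun and had the fewest peaks with Batf2. One peak, from 94716926 to 94717606, is centred in its single coding exon and scored 18.1. The other, 651 bp upstream of the TSS, scored 2.19, at percentile 0.3 of the list. That peak is 78 bp from a TSS of BC042782, a noncoding transcript antisense to Jun. A TSS of BC042782 is also the nearest to the coding exon peak, 959 bp away against 1596 bp for Jun. The next peak outside the gene lay 54.0 kb from it, beyond the limit, and scored 20.6.
Jun coding exon peak, chr4:94717166-94717365: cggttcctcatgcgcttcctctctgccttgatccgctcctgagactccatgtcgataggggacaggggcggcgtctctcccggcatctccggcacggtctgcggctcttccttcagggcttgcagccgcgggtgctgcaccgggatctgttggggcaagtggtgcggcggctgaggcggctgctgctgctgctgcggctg

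Junb (chromosome 8, 87500811 to 87502617, minus strand), which encodes a JUN protein that often restrains c-Jun, had the most peaks of the 10 genes. Its 11 scores lay between 3.17 and 29.5 (median 11.0), so that many peaks of moderate score made up the count. A group of 5 peaks lay within 3896 bp of the TSS and nearer to it than to any other. In the order of transcription these scored 28.6 at 3896 bp upstream, 7.64 at 2406 bp upstream, 11.0 at 138 bp upstream, 15.0 inside the coding exon and 29.5 at 2114 bp, just past the end of the gene. The strongest, from 87500201 to 87500805, holds TGTGGT outside the central 200 bp, and within them a CArG box, the site of serum response factor, and TGACGT. The other 6 peaks had nearer TSS of Hook2 (3 peaks), Mast1, Rnaseh2a and 2310036O22Rik, and scored 12.7 or less.
Junb downstream peak, chr8:87500403-87500602: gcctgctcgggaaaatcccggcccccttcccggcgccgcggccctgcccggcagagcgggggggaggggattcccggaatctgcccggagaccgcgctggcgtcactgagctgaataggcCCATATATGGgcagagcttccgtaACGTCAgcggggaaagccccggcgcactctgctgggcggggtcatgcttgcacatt
Junb upstream peak, chr8:87505190-87505234: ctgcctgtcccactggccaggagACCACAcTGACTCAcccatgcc

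The second Junb sequence is the edge of the peak from 87504812 to 87505234 and was chosen after its values were seen. It holds the closest RUNX and AP-1 motifs of all 57 peaks, with 1 base between TGTGGT and TGANTCA. The peak scored 7.64, at percentile 27.6 of the list.

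Jund (chromosome 8, 73221638 to 73224515, plus strand), a JUN gene known for steady expression in many tissues, had 6 peaks with scores of 7.84, 85.8, 63.6, 15.7, 8.49 and 10.5 in genomic order. The strong pair lay at the start of the gene. The peak that scored 85.8 was 2257 bp upstream of the first TSS and ranked 266 in the list. The peak that scored 63.6 was centred in a UTR, 298 bp before the second TSS, and holds TGACGTCA, the full cyclic AMP response element. Neither holds TGTGGT, but the first holds TGCGGT 2 times. The others lay in the coding exon, near Lsm4 and near Pde4c, and all 4 scored below 23.2.
Jund upstream peak, chr8:73219281-73219480: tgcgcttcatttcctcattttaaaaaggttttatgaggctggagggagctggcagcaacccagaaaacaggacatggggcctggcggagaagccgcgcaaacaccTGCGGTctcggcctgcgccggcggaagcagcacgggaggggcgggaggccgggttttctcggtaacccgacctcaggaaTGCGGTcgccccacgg

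Fos (chromosome 12, 86814840 to 86818223, plus strand) encodes c-Fos and had the strongest peak of the whole set. It lay 5087 bp upstream of the TSS, from 86809418 to 86810087, scored 186 and ranked 14 of the 15121 peaks. The 7 scores were 9.84, 45.2, 186, 12.0, 20.6, 10.5 and 5.36 in genomic order, and the TSS of Fos was the nearest for each of them. The second strongest lay 18641 bp upstream, and the peak at the TSS, centred 8 bp upstream of it, came next. TGTGGT was present 2 times in the strongest peak, both within the 200 bp printed here and close together. The peak at the TSS lacks TGTGGT and holds TGACGT, in the promoter of a gene long known as a target of cyclic AMP signals.
Fos upstream peak, chr12:86809653-86809852: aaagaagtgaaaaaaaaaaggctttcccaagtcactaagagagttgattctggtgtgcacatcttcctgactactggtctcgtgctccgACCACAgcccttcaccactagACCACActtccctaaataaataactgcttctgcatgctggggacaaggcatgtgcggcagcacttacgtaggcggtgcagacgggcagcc
Fos promoter peak, chr12:86814732-86814839: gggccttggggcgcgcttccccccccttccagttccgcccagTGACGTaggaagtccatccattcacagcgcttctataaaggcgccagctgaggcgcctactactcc

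Fosb (chromosome 7, 19888070 to 19895394, minus strand), a close relative of Fos, had 10 peaks, of which 6 reached the upper quartile of the list, the most of any member. A run of 3 strong peaks lay upstream of the gene. They were 6661 bp, 9929 bp and 15951 bp from the TSS, scored 82.2, 52.1 and 39.1, and each holds TGTGGT. The highest score of the locus, 94.6, belongs to a peak in intron 1 of Vasp, a regulator of actin filaments, 43779 bp from the Fosb TSS and 5190 bp from that of Vasp. A further peak 303 bp from the Vasp TSS scored 23.2, and 1 in exon 3 of Cd3eap, a subunit of RNA polymerase I, scored 26.7. No peak was called within 1 kb of the Fosb TSS, and the only one inside the gene, in intron 1, scored 4.23. In the Vasp peak TGTGGT lies outside the central 200 bp.
Fosb and Vasp intron peak, chr7:19851515-19851714: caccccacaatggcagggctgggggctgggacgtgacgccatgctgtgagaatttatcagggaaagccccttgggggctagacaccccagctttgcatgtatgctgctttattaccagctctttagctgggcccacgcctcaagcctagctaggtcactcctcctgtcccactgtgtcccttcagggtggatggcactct

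Fosl1, which encodes Fra-1 (chromosome 19, 5447703 to 5455945, plus strand), had 3 peaks, all downstream and all at the starts of other genes. They lay 13 bp from a TSS of Fibp, 24 bp from one of Mus81 and 927 bp from one of Cfl1, and scored 9.62, 4.79 and 18.9. None of the 3 holds TGTGGT, and the closest was 12947 bp from the Fosl1 TSS.
Fosl1 and Cfl1 peak, chr19:5491312-5491511: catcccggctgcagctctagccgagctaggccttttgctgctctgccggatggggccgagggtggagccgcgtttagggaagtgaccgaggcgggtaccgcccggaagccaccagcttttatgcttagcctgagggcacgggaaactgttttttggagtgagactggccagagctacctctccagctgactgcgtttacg

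Fosl2, which encodes Fra-2 (chromosome 5, 32438845 to 32460204, plus strand), also had 3 peaks, all upstream, but 2 of these were strong. They lay 32120 bp and 23780 bp from the TSS and scored 68.8 and 82.3, at percentiles 96.7 and 97.9 of the list. Both are intergenic, and their nearest TSS belong to Bre and Gm10463 and are 24655 bp and 20476 bp away. The peak 916 bp upstream of the Fosl2 TSS scored 8.49. TGTGGT was in the peak 23780 bp upstream alone.
Fosl2 upstream peak, chr5:32414965-32415164: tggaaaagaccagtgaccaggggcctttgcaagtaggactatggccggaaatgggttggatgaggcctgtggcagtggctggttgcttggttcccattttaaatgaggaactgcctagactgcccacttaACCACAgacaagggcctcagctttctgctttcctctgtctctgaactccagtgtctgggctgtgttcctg

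A peak within 1 kb of a TSS was found for 8 of the 10 genes, all but Fosb and Fosl1, against 24.9% of protein-coding genes. When TSS of coding transcripts alone were used, a choice made after the values were seen, Batf2 was lost and 7 remained. Jun remained through a peak that scored 2.19, at percentile 0.3 of the list, and that lies nearer a TSS of BC042782. As a group the peaks within 1 kb were of ordinary strength. The 8 had a median score of 14.3, the median of the 5745 peaks of the list within 1 kb of a TSS being 12.4, and 2 of them, at Batf3 and Jund, reached the upper quartile. A peak inside the gene was found for 5 of the 10 genes, Batf2, Jun, Junb, Jund and Fosb, against 23.2% of protein-coding genes. The one inside Batf2 is the peak at the Arl2 TSS, 23.3 kb from the coding Batf2 TSS, and counts only through the noncoding transcript. By position 33 peaks lay upstream, 6 inside and 18 downstream of their gene.

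By gene, 7 of the 10 had at least 1 peak in the upper quartile, the exceptions being Batf2, Jun and Fosl1, against 31.0% of protein-coding genes. Of the 20 such peaks, 18 were farther than 1 kb from a TSS of these genes, as were 49 of all 57. Within 1 kb of any TSS lay 3 of the 20 (15%) and 23 of the 57 (40.4%), and in the whole list 36.7% of the upper quartile and 38.0% of all peaks. Over all 57 peaks the median score of 12.0 was close to the list median of 12.1, but 35.1% reached the upper quartile, against 25.4% of the list. The 34 peaks farther than 1 kb from any TSS had a median score of 21.6, and the 9376 such peaks of the whole list had one of 12. Those within 1 kb of any TSS, 23 in number, had a median of 11.0. Measured from the nearest TSS of the 10 genes, the 5 peaks at 5 to 10 kb had the highest median, 52.1, and the 24 beyond 20 kb had one of 12.0.

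The 57 peaks had a median width of 414 bp, against 406 bp for the list. Their GC content was higher, with a median of 55.6% against 50.7%, and the ratio of observed to expected CpG was 0.445 against 0.316. The 8 peaks at a TSS of these genes had a median GC content of 61.7%, and the 49 others one of 54.8%. Within 1 kb of any TSS the median was 59.5% for peaks at these genes and 59.7% for the list. Farther from any TSS it was 54.4% and 47.5%.

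The TSS of 1 of the 10 genes was the nearest TSS for 28 peaks, and that of another gene for 29. The first group had a median score of 21.9, with quartiles at 9.84 and 45.5, and the second a median of 10.5, with quartiles at 7.84 and 18.1. The ranges overlapped widely, from 1.69 to 186 in the first group and from 1.88 to 94.6 in the second. Of the second group 17 peaks lay within 1 kb of the other gene's TSS. Assignment of such peaks to a BATF, JUN or FOS gene rests on distance alone.

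**Figure D3:**
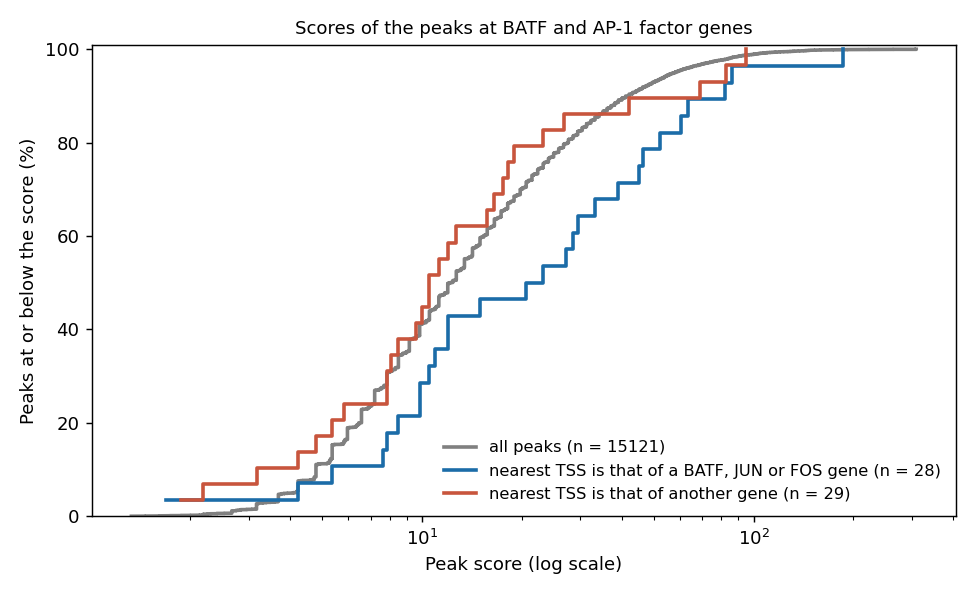
Cumulative share of peaks in percent (y axis) against peak score (x axis, log scale) for all 15121 peaks (grey), the 28 peaks whose nearest TSS is that of a BATF, JUN or FOS gene (blue) and the 29 nearer to another gene (red). The blue line reaches 50% at a median of 21.9, to the right of the grey line at 12.1 and the red line at 10.5.

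The RUNX hexamer TGTGGT was present on either strand in 29 of the 57 peaks, or 50.9% (95% interval by Wilson's method, for counting error alone, 38.3% to 63.4%), and in 54.0% of all peaks. Windows of equal width 10 kb downstream held it in 34.5% for the 57 peaks and in 30.9% for all. By family, the hexamer was in 12 of 15 peaks at BATF genes, 5 of 19 at JUN genes and 12 of 23 at FOS genes. By position, it was in 6 of the 23 peaks within 1 kb of any TSS (26.1%) and in 23 of the 34 others (67.6%). For all peaks the same shares were 34.4% and 66.1%. Peaks with the hexamer had a median score of 17.5 and those without it 10.5, and the medians for all peaks were 14.2 and 10.5. With TGCGGT allowed as well, 66.7% of the peaks at these genes and 66.5% of all peaks had a match. The paper, whose motifs were found de novo, reports the RUNX motif in a higher share of all bound regions than either exact search did.

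The heptamer TGANTCA, to which the products of these genes bind, was in 10 of the 57 peaks, or 17.5% (Wilson 95% interval 9.82% to 29.4%). It was in 13.2% of all peaks and in 12.1% of their downstream windows. The peaks that held TGANTCA had a median width of 697.5 bp and those without it 385 bp. The central 200 bp held TGANTCA in 7.02% of the peaks at these genes and in 7.10% of all peaks. Peaks with TGANTCA lay at Batf3 (2), Junb (3), Fosb (2), Fos, Fosl1 and Fosl2. Those counted for Fos and Fosl1 hold it only with A or T as N. Those at Fosb and Junb include the peak 6661 bp upstream of Fosb, with 3 matches and a score of 82.2. Another is the one 6967 bp upstream of Junb, with 3 matches and a score of 5.81. All 3 matches in that Junb peak, and 2 of the 3 in the Fosb peak, have C or G as N. TGTGGT and TGANTCA occurred together in 5 peaks (8.77%), and in 8.45% of all peaks. Their distance had a median of 32.5 bp at these genes and 71.5 bp in all peaks that held both. The composite elements of AP-1 with IRF, searched as GAAA joined directly to TGANTCA and as TTTC set 4 bases before it, were in 0 of the 57 peaks, which allows a share of up to 5.26% when the limit is set at 3 counts of the total, and up to 6.31% by Wilson's method. They were in 0.304% and 0.291% of all peaks.

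TGACGT, which is contained in the cyclic AMP response element TGACGTCA, was in 9 of the 57 peaks, or 15.8% (Wilson 95% interval 8.54% to 27.4%), and in 11.0% of all peaks and 4.19% of the windows. It was found at Batf, Junb, Jund, Fos, Fosb and Fosl2, with 2 peaks each at Junb, Jund and Fos. The full TGACGTCA was in 1 of the 57 peaks (1.75%) and in 2.28% of all peaks. The paper found TGACGT enriched among the Runx3-bound regions and assigned it to the DC factor zDC (Zbtb46). GAGGAA, letters common to sites of PU.1 and its relatives, was in 56.1% of the 57 peaks and 53.6% of all peaks. GAAA set 2 bases before a second GAAA, as in interferon-stimulated elements, was in 1 peak (1.75%) and in 6.48% of all peaks. The CArG box, a motif added after the sequences were seen, was in 2 peaks (3.51%) and in 2.64% of all peaks. Both were counted for Junb, but 1 of them is centred 166 bp from a TSS of Hook2 and 11711 bp from that of Junb.

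**Figure D4:**
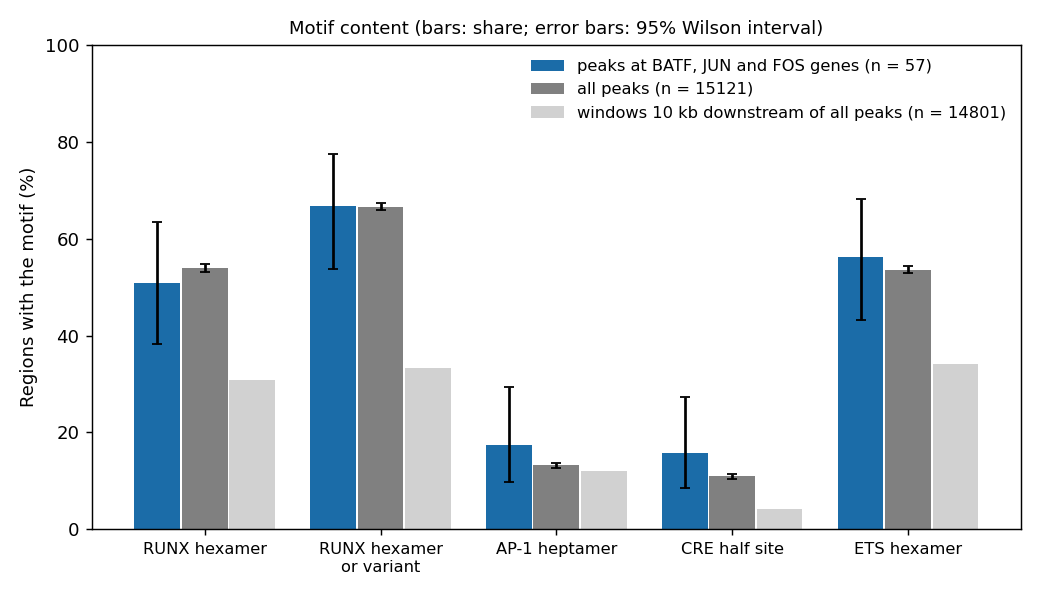
Share of regions in percent with each motif (y axis) for the 57 peaks at BATF, JUN and FOS genes (blue), all 15121 peaks (dark grey) and 14801 windows 10 kb downstream (light grey), with 95% Wilson intervals as error bars on the peaks. Each interval of the blue bars includes the dark grey share.

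Genes that act beside or above these factors were listed in 4 groups and counted by the same rule. Of the 14 dimer partners of the ATF, MAF, BACH and NFIL3 kind, 11 had a peak and 7 a peak within 1 kb of a TSS. Among them Atf7 was annotated only from 102359067 to 102359456 on chromosome 15, and its count holds for that short stretch alone. Of the 10 kinases and phosphatases of MAP kinase signalling the counts were 9 and 6. All 4 IRF and ETS partners had a peak, and 1 had it at a TSS, and for the 4 serum response factor genes the counts were 4 and 2. Over all 32 listed genes 87.5% had a peak, against 62.6% of all protein-coding genes, and 50% had 1 at a TSS, against 24.9%. The highest scores at a TSS were those of Spi1, which encodes PU.1 (99.3), Dusp5, a phosphatase of ERK kinases (55.8), the stress factor gene Atf4 (45.2), Mapk14, which encodes p38 (36.1), Atf3 (27.5) and Mafk (21.5). Some loci are shared, since 3 of the 6 peaks of Jdp2 and 1 of the 8 of Atf3 are among the 57.

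Peaks stood on both sides of the 50 kb limit. The farthest peak counted was 48.2 kb from the body of Junb and scored 12.7, and the nearest one left out was 51.1 kb from Fosb and scored 18.9. Beyond the limit, Jund had one at 53.8 kb that scored 19.8, and Fosl1 one at 54.6 kb that scored 22.3. For Fosl2 the next peak lay 128.6 kb away and scored 11.0.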

How the data were processed

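Runx3 ChIP-seq of sorted CD4+ DC comprised 2 immunoprecipitates and 2 whole cell extract controls. Per the labels the reads were 50 bp long, from fragments of about 300 bp. The authors processed them with CASAVA 1.8, aligned them uniquely to mm9 with bowtie and ran MACS2 once on the pooled samples. Versions of the last pair and the threshold are not given in the sources used here. The deposited file gives the start, end and score of each peak. The score deposited has no stated unit and served only to rank peaks within the list. Depth per library was not analysed here, and no fit across samples was possible.

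Genes and TSS were those of GENCODE M1 on NCBIM37, the assembly named mm9, on chromosomes 1 to 19, X and Y, and all 10 symbols matched. One symbol of the AP-1 network, Spi1, matched through an older name. Positions count from 1. Distances were taken from the peak centre to the gene body or to every annotated TSS, and exons and introns were numbered in the longest coding transcript. Both strands of each whole peak were read for motifs. Control windows that overlapped a peak or held unsequenced bases were left out.

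The 10 genes, the lists and the motifs were chosen with earlier results of these data known. Named neighbours were those with the TSS nearest to a peak in the upper quartile. Arl2, Snx15, Jdp2, BC042782, Hook2, Mast1, Rnaseh2a, 2310036O22Rik, Lsm4, Pde4c, Fibp, Mus81 and Cfl1 were named after their values were seen. Counting code was tested on simulated data. Work was done in Python 3.11.15 with scipy 1.17.1, numpy 2.4.6, matplotlib 3.10.9 and pandas 2.3.3.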

Additional observations from a re-analysis of the deposited data

How the results depend on the processing

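The 7 main values, namely genes with a peak (10), peaks (57), genes with a peak at a TSS (8), peaks nearest to a TSS of these genes (28), median score (12.0), share with TGTGGT (50.9%) and share with TGANTCA (17.5%), were computed again under 16 alternatives. Of the 57 alternative values, 38 stayed within 1.5 times a count or within the 95% binomial interval of a share or median. Peaks that scored 12.1, the median, or more gave 28 peaks, 4 genes with a peak at a TSS, 16 peaks nearest to these genes and a median score of 31.4, and every gene kept at least 1 peak. Peaks in the upper quartile gave 20 peaks, 2 genes with a peak at a TSS, 14 nearest peaks, a median of 45.7 and TGTGGT in 70%. The gene body alone gave 5 genes, Batf2 among them through its noncoding transcript, 6 peaks, TGTGGT in 16.7% and TGANTCA in 0%. Peaks numbered 25 within 10 kb, 37 within 20 kb and 104 within 100 kb of the body. A TSS limit of 500 bp left 5 genes. The 200 bp around the centre held TGANTCA in 7.02%, and TGTGGT or TGCGGT was in 66.7%. The fall in counts with a higher score or a shorter distance follows from fewer peaks being kept. A score limit likewise raises the median score by its own rule. Allowing TGCGGT can only raise a share, and reading only the central 200 bp can only lower one. For the other shifts the cause was not tested. Joined peaks and placement by any base moved none of the 7 values beyond these limits. No replicate could be left out, and no paired analysis was possible because the list holds 1 value per peak for both replicates together. Depth limits how weak a peak could be called, and the reads behind each peak were not analysed here.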
